A study of Mus musculus with 6 samples.

Results

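Activins, the follistatins that bind them and the receptors they act through were described in primary mouse mesangial cells, which hold together and contract the capillary tuft of the glomerulus. The members were the 9 genes Inhba, Inhbb, Fst, Fstl1, Fstl3, Acvr1, Acvr1b, Acvr2a and Acvr2b, each found as a single row by its gene symbol among the 19730 rows of the RNA-Seq table. RNA was sequenced from 3 Control libraries and 3 libraries of cells given TGF-β1 at 10 ng/ml for 72 h. TGF-β1, transforming growth factor beta 1, is a secreted protein of the same superfamily as the activins and is best known in the kidney for driving scarring. All cells, Control included, were primary mesangial cells of passage 3 to 6 in Dulbecco's medium with 25.5 mM glucose and 20% foetal bovine serum, so both groups were in high glucose and in serum. The labels name no genotype, strain or age, and they do not say whether the replicates came from separate cultures or animals. The p-values therefore measure only the spread between these samples, which may be technical.

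Activins are dimers of inhibin beta chains. Inhba encodes the beta A chain and Inhbb the beta B chain, and a beta chain joined to the inhibin alpha chain (Inha) instead gives an inhibin, which opposes activin. An activin first binds a type II receptor (Acvr2a or Acvr2b), which then recruits and phosphorylates a type I receptor (chiefly Acvr1b, also called ALK4), and the type I receptor phosphorylates SMAD2 and SMAD3, the same intracellular messengers that TGF-β1 uses. Follistatin (Fst) and follistatin-like 3 (Fstl3) wrap around the activin dimer and keep it from its receptors, whereas follistatin-like 1 (Fstl1) shares the follistatin domain but is better known as a matrix glycoprotein of the SPARC family. In the kidney, activin A, the dimer of beta A chains, is known as a factor of development and of fibrosis.

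Levels are given as FPKM, a fragment count corrected for transcript length and for sequencing depth, so that genes can be compared with each other. Changes were tested with limma on log2(FPKM + 1) over all rows with a mean of at least 1 FPKM, with Benjamini-Hochberg adjustment, and an adjusted p under 0.05 was called a change. Depth was about 10.1 to 11.1 M (mega) fragments per library. The replicate 2 libraries of both groups stood apart from the others. Of 10791 tested protein-coding rows, 45 had at most 0.5 times the level of each of the other 4 libraries in both replicate 2 libraries, against at most 4 rows for any other pair of a Control and a TGF-β1 library. The median GC content of the 45 transcripts was 61.6%, against 50.4% over all these rows. They were also shorter, with a median length of 1348 nt against 2672 nt. Fstl3 was the one member among the 45, so its results are given with and without replicate 2.

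The cultures were set against marker lists, since these levels are from bulk RNA, in which fewer cells of a type and less RNA per cell cannot be told apart. Of 10 mesangial markers, Pdgfrb, the platelet-derived growth factor receptor of mural cells, was at 32.0 to 41.1 FPKM in Control and 28.4 to 29.9 FPKM with TGF-β1, while Itga8, Des and Thy1 were under 1 FPKM in every library. The summed mesangial markers went from 1418 to 1717 FPKM in Control to 5299.6 to 6229 FPKM with TGF-β1, mostly through the smooth muscle genes Acta2 and Tagln. The 6 measured tubule markers summed to 125 to 160.3 FPKM in Control and 6.45 to 7.90 FPKM with TGF-β1, and the 6 measured macrophage markers to 87.0 to 114 and 9.03 to 11.3 FPKM. The podocyte markers Synpo, Wt1, Podxl and Cdkn1c fell (limma adjusted p 1.25e-05 to 0.0185), with Cdkn1c at 12.6 to 13.5 FPKM in Control and 1.23 to 1.51 FPKM with TGF-β1. Tubule and macrophage sums came mostly from Cdh16 and Cd14. Aqp1, a water channel of the proximal tubule, fell, with 9.06 to 12.2 FPKM in Control and 0.0761 to 0.244 FPKM with TGF-β1. Csf1r, a macrophage growth factor receptor, fell as well, with 5.52 to 7.37 FPKM and 0.234 to 0.525 FPKM. Lrp2, under the filter, was at 1.09 to 1.93 FPKM and 0.212 to 0.245 FPKM. Cd68 was at 2.02 to 3.67 FPKM and 1.78 to 2.68 FPKM. Of the other markers, Cdh1, Slc12a1, Aqp2, Ptprc, Itgam, Lyz2 and Nphs1 were under 1 FPKM in every library, as were 5 of 6 endothelial markers. Among these, the tubule marker Slc12a1 was higher in every treated library, at 0.0408 to 0.102 FPKM in Control and 0.291 to 0.511 FPKM with TGF-β1. Ptprc was listed at 0 in all Control libraries. The part that other cell types have in the results that follow was not tested.

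Of the 9 members, 8 passed the filter on low values and Acvr2b did not. Fstl3 passed only through its TGF-β1 libraries, with a mean of 0.861 FPKM in Control and 5.67 FPKM with TGF-β1. Acvr2b had means of 1.02 and 0.492 FPKM. Among the 8, 4 rose (Inhba, Acvr1, Inhbb and Fstl1), 1 fell (Acvr1b) and 3 (Fst, Fstl3 and Acvr2a) did not pass the test. Of all 11898 rows tested, 48.1% were called, with 24.5% higher and 23.6% lower with TGF-β1. A call was therefore common in this comparison, and 5 of 8 members (62.5%) is not far above that background. Rescaling libraries to the sum of their protein-coding rows moved the share of called rows that were higher from 50.9% to 33.9%, with the same 4 members higher and 2 lower. The 2 groups of libraries did not overlap for 7 of the 8 tested members, against 59.4% of all tested rows. The median log2 change was 1.04 over the 8 members, with Fstl3 counted and Acvr2b left out, and -0.02 over all tested rows.

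**Figure D1:**
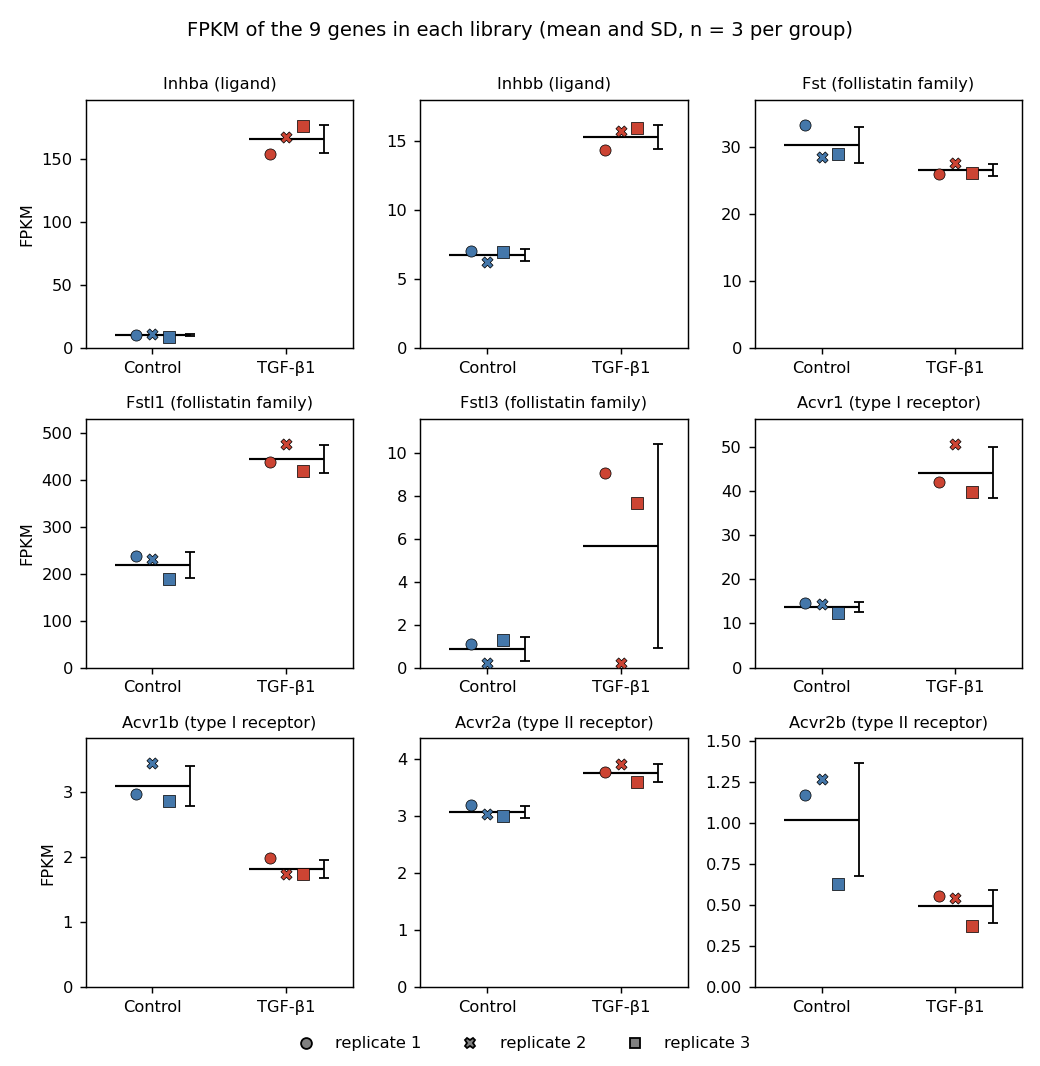
FPKM (vertical axes, linear and from 0) of each of the 9 genes in the 3 Control (blue) and 3 TGF-β1 (red) libraries. Points are single libraries with the replicate number as the symbol, lines are means and bars are SD. Inhba sits at 9.21 to 11.4 FPKM in Control and 154 to 176 FPKM with TGF-β1, and Fstl3 is low in both replicate 2 libraries.

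Both activin beta chain genes rose. Inhba was at 10.5, 11.4 and 9.21 FPKM in Control replicates 1 to 3 and at 154, 167 and 176 FPKM in TGF-β1 replicates 1 to 3. All 3 treated libraries lay far above all Control libraries, the lowest treated value being 13.6-fold higher than the highest Control value. The means were 10.3 ± 1.08 and 166 ± 11.1 FPKM (SD, n = 3), 16-fold higher with TGF-β1, and the log2 change was 3.88 (SE 0.10, limma adjusted p 4.68e-06). Among the 10791 tested protein-coding rows, 13 others had a larger rise on the log2 scale. Inhba moved from the 45.6th percentile of tested rows in Control to the 94.4th with TGF-β1. Ranked in 5 equal steps of mean FPKM among the changed genes, it went from step 3 to step 5. The gene lies on mm9 chromosome 13, from 16103684 to 16119044 on the plus strand, and overlaps no other annotated gene.

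Inhbb was at 7.06, 6.26 and 6.93 FPKM in Control and at 14.3, 15.7 and 15.9 FPKM with TGF-β1. The groups did not overlap, and the lowest treated library was 2.03-fold above the highest Control library. Inhbb rose 2.27-fold, from 6.75 ± 0.431 to 15.3 ± 0.873 FPKM, with a log2 difference of 1.07 (SE 0.0860, limma adjusted p 2.04e-04). The gene lies on mm9 chromosome 1, from 121312042 to 121318825 on the minus strand.

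The ratio of the chains shifted with the treatment. In Control, Inhba was at 1.48, 1.81 and 1.33 times the FPKM of Inhbb, and with TGF-β1 at 10.8, 10.7 and 11.1 times. Inhba thus made up 57.1% to 64.5% of the summed beta chain FPKM in Control and 91.4% to 91.7% with TGF-β1. The sum of both beta chains was 17.5, 17.6 and 16.1 FPKM in Control and 168, 183 and 192 FPKM with TGF-β1. These ratios and sums are descriptions and were not tested.

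Inha, the alpha chain that turns a beta chain into an inhibin, went the other way. Its values were 20.3, 16.4 and 18.1 FPKM in Control and 6.36, 3.18 and 5.21 FPKM with TGF-β1. Inha fell 3.72-fold, from 18.3 ± 1.96 to 4.92 ± 1.61 FPKM, with a log2 difference of -1.74 (SE 0.22, limma adjusted p 0.00113), and the groups did not overlap. The alpha chain made up 53.7%, 48.3% and 52.9% of the summed FPKM of the 3 chains in Control, and 3.64%, 1.71% and 2.64% with TGF-β1. Inhba was below Inha in every Control library, at 0.509 to 0.691 times its level. It was above Inha in every treated library, at 24.2, 52.5 and 33.8 times in replicates 1 to 3. The highest of these ratios was that of replicate 2, where Inha was lowest. Inha was lowest in replicate 2 of the Control group as well. Without TGF-β1 replicate 2 its log2 change was -1.51 (SE 0.13, limma adjusted p 0.00118).

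**Figure D2:**
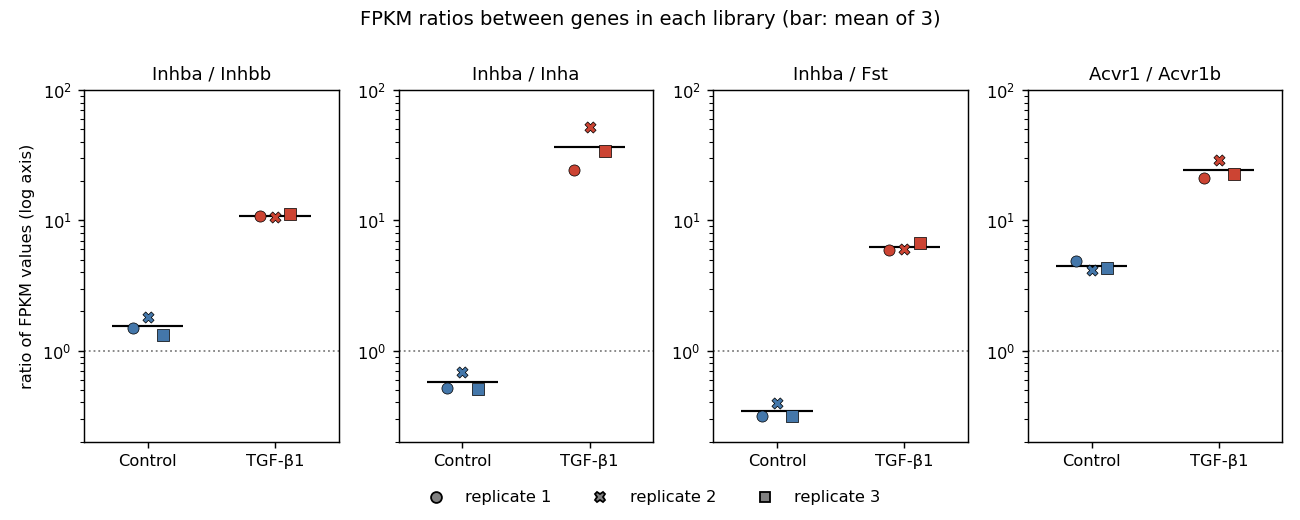
Ratio of FPKM between 2 genes in each library (log axis; 1 marks equal levels) for Inhba over Inhbb, Inhba over Inha, Inhba over Fst and Acvr1 over Acvr1b, in Control (blue) and TGF-β1 (red). Points are libraries and lines are means of 3. All 4 ratios were higher in every TGF-β1 library than in every Control library, and Inhba over Inha and Inhba over Fst crossed 1.

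The regions upstream of the 2 ligand genes are shown because both rose and because SMAD3 and SMAD4 bind the short word GTCT, or AGAC on the other strand. The sequences are the 250 bases before the annotated start, in the sense direction, from RefSeq on GRCm38.p6, a later build than the mm9 of the expression values. Inhba is at chr13:16011601-16011850 (plus strand) and Inhbb at chr1:119422249-119422498 (minus strand). Capitals mark each GTCT or AGAC.
Inhba: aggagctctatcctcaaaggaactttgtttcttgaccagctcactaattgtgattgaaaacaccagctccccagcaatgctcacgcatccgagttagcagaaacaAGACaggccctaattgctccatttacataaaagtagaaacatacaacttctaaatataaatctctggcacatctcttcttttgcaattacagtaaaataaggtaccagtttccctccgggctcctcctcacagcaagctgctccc
Inhbb: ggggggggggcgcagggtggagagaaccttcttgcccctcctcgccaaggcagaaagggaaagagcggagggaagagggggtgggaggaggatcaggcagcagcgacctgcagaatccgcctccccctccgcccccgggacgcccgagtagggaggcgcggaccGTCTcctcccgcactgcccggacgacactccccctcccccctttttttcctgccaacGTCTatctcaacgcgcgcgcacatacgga
The Inhba window holds 1 such word and has a GC content of 43.2%, and the Inhbb window holds 2 and has a GC content of 68.0%. The median GC content of the 32851 RefSeq promoter windows of this length was 52.4%. A promoter entry was matched for 8 of the 9 members, all but Fst, and all 8 windows hold AGAC or GTCT, as do 82.9% of all windows. The longer CAGAC, or GTCTG on the other strand, contains the first word and was found in the windows of Acvr2a, Acvr2b and Fstl3 and in 42.2% of all windows. The palindrome GTCTAGAC (0.167% of all windows) and the AP-1 word TGACTCA or its reverse TGAGTCA (4.46%) were in none of the 8. A match is a description of these letters and not a binding site.

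The follistatin genes did not move together. Fst, which encodes the main soluble activin antagonist, was at 33.4, 28.6 and 29.0 FPKM in Control and at 26.0, 27.7 and 26.2 FPKM with TGF-β1. All treated libraries were below all Control libraries, but only by 1.03-fold at the nearest pair. The means were 30.3 ± 2.67 and 26.6 ± 0.935 FPKM, and the log2 change of -0.18 (SE 0.0871) did not pass the test (limma adjusted p 0.136). Rescaling each library to the sum of its protein-coding rows moved the median change of all rows to -0.19, and Fst then passed with a log2 change of -0.37 (limma adjusted p 0.0104). The gene lies on mm9 chromosome 13, from 115242470 to 115249159 on the minus strand. Set against the ligand in the same library, Inhba was at 0.313, 0.397 and 0.317 times the FPKM of Fst in Control and at 5.93, 6.03 and 6.73 times with TGF-β1.

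Fstl1 was the most abundant member in both groups. Its values were 237, 232 and 188 FPKM in Control and 438, 477 and 419 FPKM with TGF-β1, with the lowest treated library 1.77-fold above the highest Control library. Fstl1 rose 2.03-fold, from 219 ± 27.1 to 444 ± 29.4 FPKM, with a log2 difference of 1.02 (SE 0.12, limma adjusted p 8.32e-04). It was already at the 96.4th percentile of tested rows in Control and was at the 97.6th with TGF-β1. Fstl1 lies on mm9 chromosome 16, from 37776959 to 37836600 on the plus strand, and shares 442 bp with Gm15724 on the opposite strand, which stayed under 1 FPKM in every library.

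Fstl3 encodes a secreted activin antagonist related to Fst and is known as a gene that activin and TGF-β switch on. It was at 1.11, 0.201 and 1.27 FPKM in Control and at 9.09, 0.218 and 7.70 FPKM with TGF-β1. Replicates 1 and 3 were higher with TGF-β1 than in Control, while replicate 2 was low in both groups and at almost the same level, so the groups overlapped. Replicate 2 was at 16.9% of the mean of replicates 1 and 3 in Control and at 2.60% with TGF-β1. At an assumed fragment length of 200 nt, these values correspond to about 21.6, 3.90 and 24.1 fragments in Control, and to 175, 3.87 and 146 fragments with TGF-β1. The 2 low values thus each rest on about 4 fragments, while the treated libraries 1 and 3 rest on well over 100.

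Over all 6 libraries the change in Fstl3 did not pass the test. The means were 0.861 ± 0.577 and 5.67 ± 4.77 FPKM, and the log2 change was 1.40 (SE 0.82, limma adjusted p 0.205). In the same model fitted on replicates 1 and 3 only, the change was 2.10 (SE 0.14, limma adjusted p 0.00311), and the mean level went from 1.19 to 8.39 FPKM, 7.05-fold. With a batch term for replicate 2 the change was 1.40 (SE 0.44, limma adjusted p 0.0430), and without TGF-β1 replicate 2 alone it was 2.39 (SE 0.31, limma adjusted p 0.00356). No test was possible within replicate 2, which has a single library in each group. Without TGF-β1 replicate 1 the change was 0.86 (limma adjusted p 0.466) and without TGF-β1 replicate 3 it was 0.97 (limma adjusted p 0.444), and with 5 FPKM added in place of 1 it was 0.74 (limma adjusted p 0.146). Whether Fstl3 passed the test therefore depended on how replicate 2 was handled and on which libraries were kept.

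The low replicate 2 value was uncommon among genes, and the other members did not share it. Measured as the log2 ratio of replicate 2 to the mean of replicates 1 and 3, with 0.1 FPKM added to both, Fstl3 was at -2.10 in Control and -4.74 with TGF-β1, where the medians over 10791 rows were 0.00 and 0.05. Lower values were found in 27 rows for Control and 15 rows for TGF-β1. The replicate 2 level of the other 8 members was 89.4% to 142% of the mean of replicates 1 and 3 in Control and 93.0% to 124% with TGF-β1. The Fstl3 transcript has a GC content of 57.1%, at the 84.5th percentile of all protein-coding rows of at least 300 nt, tested or not. Inhbb (60.9%) and Acvr2b (62.0%) have a higher GC content and were not low in replicate 2. In TGF-β1 replicate 2 the deviation from the group mean fell with GC content, with Spearman's rho across genes of -0.385, against 0.00729 in Control replicate 2. Genes are not independent replicates. With GC content and length trends removed, the Fstl3 change over all 6 libraries was 1.55 (SE 0.74, limma adjusted p 0.119). Whether GC content accounts for the low replicate 2 values of Fstl3 was not tested.

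**Figure D3:**
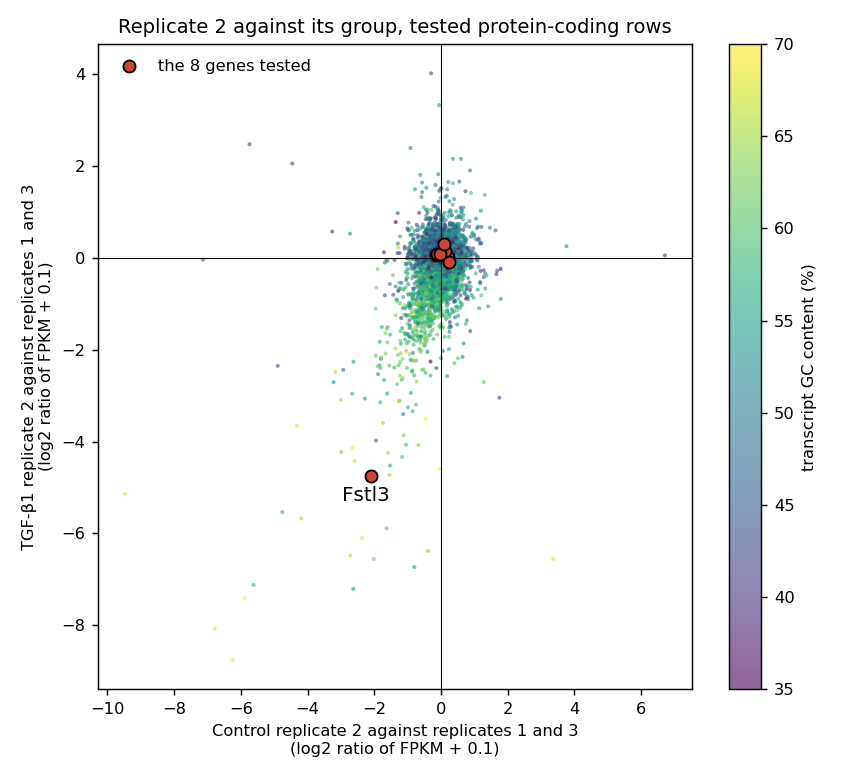
Replicate 2 against the mean of replicates 1 and 3 in Control (horizontal) and TGF-β1 (vertical), as log2 ratios of FPKM + 0.1, for tested protein-coding rows, coloured by transcript GC content. The 8 tested members are the large red points. Fstl3 lies at -2.10 and -4.74, away from the other members near 0.

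Fstl3 lies on mm9 chromosome 10, from 79240017 to 79245375 on the plus strand, and shares 1157 bp with Prss57, a serine protease gene on the opposite strand. The sources do not say whether strand was used in counting, so fragments in the shared stretch could belong to either gene. Prss57 was at 3.05, 3.45 and 2.79 FPKM in Control and 14.6, 13.2 and 13.7 FPKM with TGF-β1, with a log2 difference of 1.86 (SE 0.10, limma adjusted p 4.19e-05), and was not low in replicate 2. The 250 bases before the Fstl3 start, at chr10:79777024-79777273 of GRCm38.p6 (plus strand), are shown because this is the one member window that holds CAGACA or its reverse TGTCTG, a word found in 17.1% of all windows. Capitals again mark GTCT and AGAC.
Fstl3: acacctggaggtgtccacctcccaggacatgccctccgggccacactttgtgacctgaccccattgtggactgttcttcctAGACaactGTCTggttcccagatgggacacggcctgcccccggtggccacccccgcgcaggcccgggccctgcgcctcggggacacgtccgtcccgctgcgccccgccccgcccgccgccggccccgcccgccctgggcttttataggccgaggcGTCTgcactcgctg
The window holds 3 of the short words and has a GC content of 71.2%, at the 92.2nd percentile of RefSeq windows.

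The type I receptor genes moved in opposite directions. Acvr1 encodes ALK2, which chiefly carries signals of bone morphogenetic proteins (BMPs) and which can bind activin in a complex that does not signal. It was at 14.5, 14.3 and 12.3 FPKM in Control and at 42.0, 50.6 and 39.8 FPKM with TGF-β1. The lowest treated library was 2.74-fold above the highest Control library. Acvr1 rose 3.22-fold, from 13.7 ± 1.18 to 44.1 ± 5.73 FPKM, with a log2 difference of 1.61 (SE 0.12, limma adjusted p 1.46e-04). It lies on mm9 chromosome 2, from 58241055 to 58419568 on the minus strand. The row carries the identifier of a transcript annotated as non-coding, 1 of 6 transcripts of the gene, and it is not stated whether the value is that of the gene or of this transcript.

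Acvr1b, which encodes ALK4, the receptor through which activins A and B chiefly signal to SMAD2 and SMAD3, was at 2.97, 3.44 and 2.86 FPKM in Control and at 1.98, 1.73 and 1.74 FPKM with TGF-β1. Every treated library was below every Control library, by 1.44-fold at the nearest pair. Acvr1b fell 1.70-fold, from 3.09 ± 0.308 to 1.82 ± 0.143 FPKM, with a log2 difference of -0.54 (SE 0.11, limma adjusted p 0.00830). These low levels rest on about 53.9 to 117 fragments per library. Acvr1b lies on mm9 chromosome 15, from 101004556 to 101043032 on the plus strand. Acvr1 was at 4.88, 4.15 and 4.31 times the FPKM of Acvr1b in Control and at 21.2, 29.2 and 22.9 times with TGF-β1.

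Neither type II receptor gene passed the test. Acvr2a was at 3.20, 3.04 and 3.00 FPKM in Control and at 3.77, 3.92 and 3.60 FPKM with TGF-β1. All treated libraries were above all Control libraries, by 1.13-fold at the nearest pair. The log2 change of 0.22 (SE 0.0890) had a limma adjusted p of 0.0807. Acvr2a lies on mm9 chromosome 2, from 48669629 to 48758789 on the plus strand, and shares 446 bp with Orc4 on the opposite strand, a subunit gene of the origin recognition complex that was at 29.1 to 44.6 FPKM in Control and 52.1 to 57.4 FPKM with TGF-β1.

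Acvr2b was the least abundant receptor among the members, at 1.17, 1.27 and 0.626 FPKM in Control and at 0.558, 0.543 and 0.374 FPKM with TGF-β1. The groups did not overlap, but Control replicate 3 lay close to the treated libraries, 1.12-fold above the highest of them. Acvr2b was under the filter, and in the fit without a filter its log2 change was -0.43 (SE 0.15, limma adjusted p 0.0802). Without Control replicate 3 the change was -0.57 (limma adjusted p 0.0143), so the call depended on that library, and it passed as well when libraries were rescaled to the sum of protein-coding rows (-0.50, limma adjusted p 0.0447). Its values rest on about 6.19 to 21.5 fragments. Acvr2b lies on mm9 chromosome 9, from 119311562 to 119342619 on the plus strand.

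The order of the mean levels changed with the treatment. In Control it ran from Fstl1 (219 FPKM) through Fst (30.3), Acvr1 (13.7), Inhba (10.3) and Inhbb (6.75) to Acvr1b (3.09), Acvr2a (3.08), Acvr2b (1.02) and Fstl3 (0.861). Neighbours in this order did not overlap between libraries, except Acvr1b with Acvr2a and Acvr2b with Fstl3. With TGF-β1, Inhba was next after Fstl1 (444 FPKM), at 166 FPKM, followed by Acvr1 (44.1), Fst (26.6), Inhbb (15.3), Fstl3 (5.67), Acvr2a (3.77), Acvr1b (1.82) and Acvr2b (0.492). Here Fstl3 and Acvr2a overlapped, through replicate 2 of Fstl3. Inhba had thus passed Fst and Acvr1, and Acvr2a and Acvr1b no longer overlapped.

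The list of other genes of the activin branch held 49 symbols, of which 40 were in the table and 23 passed the filter. Of these 23, 11 rose, 6 fell and 6 did not pass the test, so that 73.9% were called against 48.1% of all tested rows. Of the 17 called, 11 were intracellular genes, among them Smad2 and Smad3, which TGF-β1 itself uses. The list was chosen with earlier results of these data known, so this share is not a result about activin signalling. The median log2 change of the 23 was 0.24. By role, 1 of 3 tested ligands fell (Inha) and none rose, and the tested convertase (Furin) and the tested binding protein (Sparc) rose. The tested co-receptor (Tgfbr3) fell, 1 of 2 other receptors rose (Bmpr2) and 1 fell (Tgfbr1), and of 15 intracellular genes 8 rose and 3 fell.

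**Figure D4:**
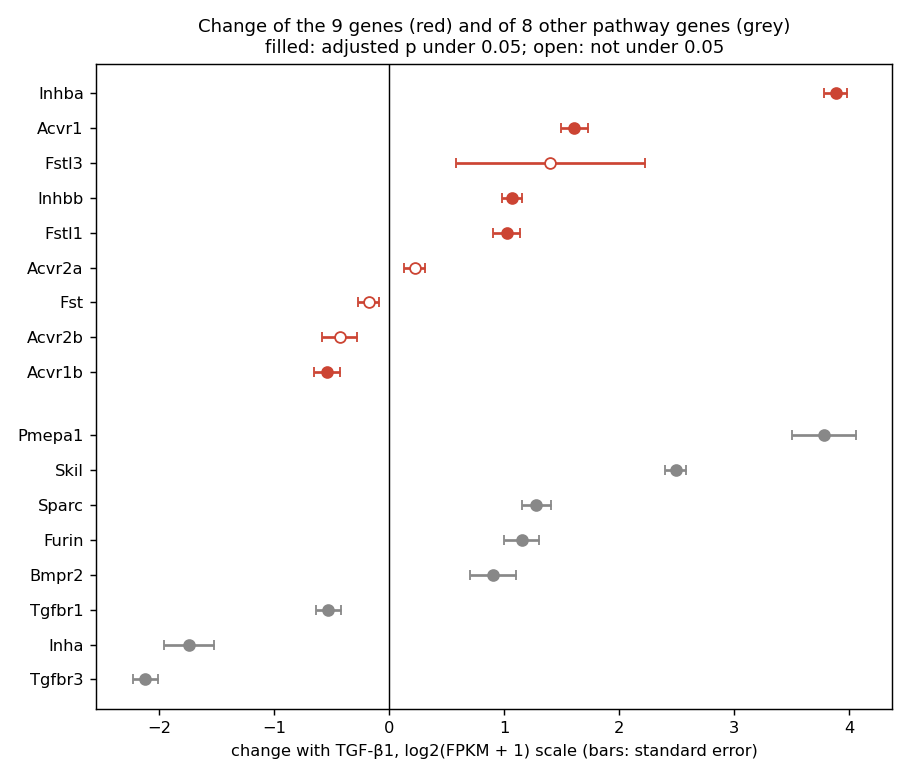
Change with TGF-β1 on the log2(FPKM + 1) scale (horizontal axis; bars are the standard error of the limma fit) for the 9 members (red) and 8 other genes of the branch (grey). Filled points passed an adjusted p of 0.05, and Acvr2b is from the fit without a filter. Inhba (3.88) and Pmepa1 (3.78) had the largest rises shown, and Fstl3 the widest error (SE 0.82).

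The filter was passed by 1 of 3 measured convertase genes (Furin) and by 1 of 2 measured co-receptor genes (Tgfbr3). Furin, the protease that cleaves activin and TGF-β precursors, was at 18.1, 26.9 and 20.2 FPKM in Control and 46.4, 51.9 and 48.7 FPKM with TGF-β1, with a log2 difference of 1.15 (SE 0.15, limma adjusted p 0.00133). Tgfbr3 encodes betaglycan, the co-receptor that lets inhibin compete with activin for type II receptors. It was at 9.19, 9.50 and 7.79 FPKM in Control and 1.33, 1.36 and 1.10 FPKM with TGF-β1, a 6.98-fold fall with a log2 difference of -2.12 (SE 0.11, limma adjusted p 4.69e-05). Sparc, a matrix glycoprotein that shares a follistatin-like domain with Fstl1, went from 2266 ± 217 to 5488 ± 409.8 FPKM (log2 change 1.28, SE 0.13, limma adjusted p 5.26e-04). Inha and Tgfbr3, the inhibin chain and its co-receptor, were both lower in every treated library than in every Control library.

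Among other receptors, Bmpr2, a BMP type II receptor, rose from 1.35 ± 0.631 to 3.29 ± 0.181 FPKM (log2 change 0.90, SE 0.20, limma adjusted p 0.0121). Within replicates 1 and 3 its limma adjusted p was 0.0871. Tgfbr1, the TGF-β type I receptor, fell from 9.62 ± 1.37 to 6.32 ± 0.366 FPKM (log2 change -0.53, SE 0.11, limma adjusted p 0.010). On this scale the change was close to that of Acvr1b (-0.54), but by mean FPKM Tgfbr1 fell 1.52-fold and Acvr1b 1.70-fold. Acvrl1 (ALK1) was listed at 0 in all Control libraries and at 0.507, 0.878 and 0.399 FPKM with TGF-β1, under the filter. Lefty1 and Sparcl1 were also listed at 0 throughout Control, and Inhbc, Gdf3, Fstl5, Wfikkn2, Cer1, Igsf1 and Acvr1c throughout TGF-β1, all at no more than 0.173 FPKM elsewhere.

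Among intracellular genes, the largest rises were of feedback genes. Pmepa1 encodes a membrane protein that keeps SMAD2 and SMAD3 from the receptor, and was at 20.6, 16.8 and 19.9 FPKM in Control and 335, 172 and 359 FPKM with TGF-β1. All treated libraries were far above Control, but TGF-β1 replicate 2 lay well below the other treated libraries. Its log2 change was 3.78 (SE 0.28, limma adjusted p 1.65e-04). Skil encodes SnoN, a repressor of SMAD target genes. It went from 2.42 ± 0.226 to 18.2 ± 1.17 FPKM, with a log2 difference of 2.49 (SE 0.0941, limma adjusted p 1.54e-05). The 3 intracellular genes that fell were Smad3, Nedd4l and Magi2, and the 4 not called were Smad4, Ski, Dynlrb1 and Dynlt1a, all named after their values were seen.

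Gdf15 is a stress-induced secreted relative of the activins. It was the only gene of the branch list that, like Fstl3, was among the 45 rows defined above as low in both replicate 2 libraries. It was at 20.1, 5.66 and 15.5 FPKM in Control and at 28.5, 0.419 and 32.8 FPKM with TGF-β1. Other genes of the list, Inha and Pmepa1 among them, were also lowest in replicate 2 of both groups, but by less. Gdf15 did not pass the test (limma adjusted p 0.892).

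The genes whose levels followed the members most closely were found by Pearson's r of log2(FPKM + 1) over the 6 libraries, among 10790 protein-coding rows. For Inhba these were Stard4 (r 0.9998), Olfm2 (0.9996) and Rps6ka2 (0.9995). Stard4, a cholesterol transfer protein, was at 4.0, 4.22 and 3.72 FPKM in Control and 16.6, 17.9 and 17.7 FPKM with TGF-β1. For Fstl3 they were Gm7008 (0.9958), Mfsd5 (0.9956) and 6030419C18Rik (0.9919). Gm7008 was at 1.62, 0.465 and 1.43 FPKM in Control and 8.51, 0.254 and 7.59 FPKM with TGF-β1, so it too was low in both replicate 2 libraries. On deviations from the group means, Fstl3 was closest to Agap3 (0.9989), Josd2 (0.9987) and Ubtd1 (0.9986), whose transcripts have a GC content of 61.2%, 63.0% and 61.7%. These values of r rest on 6 libraries in 2 groups and are given as a description.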

How the data were processed

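Per the labels and the study's methods, total RNA was extracted with TRIzol and sequenced on an Illumina HiSeq. After discarding reads of low quality, the authors mapped reads to mm9 with TopHat (TopHat2 2.0.11 in the submitters' processing notes, an earlier release in the methods) and estimated FPKM with Cufflinks. The deposited values are FPKM, 1 column per library, and 0 columns lacked a sample. The gene annotation, the use of strand, and whether a row is a gene or its named transcript are not given in the sources used here. The authors tested counts with DESeq, and no counts were used here.

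Groups and replicate numbers came from the labels. limma 3.58.1 in R 4.3.3 (lmFit, eBayes with trend, two-sided, Benjamini-Hochberg) was run on log2(FPKM + 1), a scale that understates changes of low genes. It covered the 11898 rows whose mean was 1 FPKM or more. The code was also run on simulated data with independent rows, few of them changed, and no replicate 2 effect. That run cannot tell how the fit handles the many changed rows and the replicate 2 libraries here. Depth came from the steps of low FPKM values in 906 to 995 single-transcript coding genes of at least 500 nt per library, of which 99.1% to 99.9% lay within 0.1 of a whole fragment count. Fragment numbers are approximate and assume a fragment length of 200 nt. Coordinates are 1-based on mm9 (GENCODE M1).

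The members and lists were chosen with earlier results of these data known. Named genes were all members, the 2 called genes of largest change in each role of the branch list, genes listed at 0 throughout 1 group, and the 3 genes most alike to Inhba and Fstl3. Alternatives covered the pseudocount, filter, threshold, scaling, variance trend, replicate block and batch, GC content and length, and leaving out each library. Some marker genes are not reported here.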

Additional observations from a re-analysis of the deposited data

How the results depend on the processing

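Over 18 alternatives, run for the 9 members and 8 called genes of the branch list, no log2 change reversed direction. Inhba, Inhbb, Fstl1 and Acvr1 were called in every one (log2 changes of 3.48 to 3.99, 0.79 to 1.27, 0.83 to 1.08 and 1.39 to 1.68), and Acvr1b in the 17 that tested it (-0.73 to -0.25, limma adjusted p up to 0.0496). Acvr2a was called in none (limma adjusted p 0.0515 to 0.600). Fst was called after rescaling to the sum of protein-coding rows, but not to the upper quartile (-0.24, limma adjusted p 0.0574), and after removal of GC content and length trends (-0.28, limma adjusted p 0.0244). At an adjusted p under 0.01, 3672 of all rows were called instead of 5721, fewer by construction, and Bmpr2 and Tgfbr1 were lost. A filter at 3 FPKM tested 9941 rows, without Acvr1b, Acvr2b or Bmpr2. Leaving out 1 library gave 4419 to 5446 called rows, and replicates 1 and 3 only gave 4195. Rescaling to the sum of protein-coding rows put 33.9% of 5942 called rows higher with TGF-β1, against 50.9% of 5721 before, and rescaling to the upper quartile 45.2%.

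Replicate numbers are shared between the groups. The deviations of same-numbered libraries correlated across genes at 0.0921, 0.232 and 0.0853, in order of number, against at most 0.117 for other pairs. Only the value of the replicate 2 libraries, 0.232, lay above that maximum, so these libraries shared part of their deviations. The main fit did not pair libraries by number. A fit with the replicate number as a block called 5391 rows, and changed no call among the 9 members and these 8 genes; Fstl3 had a limma adjusted p of 0.0688. Acvr1b, Acvr2b and the Control values of Fstl3 rest on few fragments, which limits the precision of their changes.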
